A study of Mus musculus with 117 samples.

Results

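In all, 10 genes of iron handling were followed through the hepatocyte chromatin of 9 inbred mouse strains: Hamp, Hamp2, Trf, Tfrc, Tfr2, Hfe, Slc40a1, Bmp6, Fth1 and Hpx. They were chosen by name. All 10 were found among 21631 protein-coding genes of chromosomes 1 to 19 and X. Each gene was taken with 2 kb added at both ends, which gave 1519 bins of 200 bp.

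The study profiled 4 histone marks, H3K4me1, H3K4me3, H3K27ac and H3K27me3, by chromatin immunoprecipitation sequencing. The hepatocytes came from females aged 12 weeks of the laboratory strains A/J, C57BL/6J, DBA/2J, 129S1/SvImJ, NZO/HlLtJ and NOD/ShiLtJ and the wild-derived strains WSB/EiJ, PWK/PhJ and CAST/EiJ, with no treatment named. Every strain had 3 mice per mark and 1 input library, 117 libraries in all. What was deposited is 1 segmentation per strain, in which each 200-bp bin carries the number of 1 of 14 chromatin states, so the strain is the unit of replication and every SD below is over 9 strains. Values of single mice and the sequencing depth are not known from these files. The split into laboratory and wild-derived strains is general knowledge and not in the labels.

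Iron in mammals is controlled by hepcidin, a peptide hormone made by hepatocytes and encoded by Hamp in mice, with Hamp2 as a close copy. Hepcidin binds ferroportin, the only known cellular iron exporter, and causes its degradation, so that less iron enters the plasma. Liver endothelial cells release bone morphogenetic protein 6, which signals to hepatocytes through SMAD proteins and raises Hamp transcription, and the hepatocyte surface proteins HFE and transferrin receptor 2 take part in the sensing of iron. Hepatocytes also secrete transferrin, which carries iron in plasma, and hemopexin, which carries heme, and store iron in ferritin.

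The segmentations do not say which marks make up a state, and the numbers below serve as names with no mark assigned to them. States 1, 2 and 3 were grouped, because earlier results of these data placed them at hepatocyte genes. The choice came from the same segmentations, so the hepatocyte marker values that follow describe the group and do not test it. In 15 hepatocyte marker genes the median share of bins in states 1 to 3 lay between 78.1% and 88.7% in the 9 strains, while the median over all protein-coding genes was 5.14%. The medians of marker panels for Kupffer, stellate and erythroid cells were 0% in every strain. Cholangiocyte markers had medians of at most 2.06%, and sinusoidal endothelial markers had medians of 5.57% to 10.02%. Some single genes of these panels were higher, among them means of 53.3% for Lyve1, 33.0% for Gata4 and 24.0% for Oit3 among endothelial markers, 64.8% for Cd68 and 12.2% for Csf1r among Kupffer markers, 19.7% for Sox9 among cholangiocyte markers and 29.5% for Klf1 among erythroid markers. At 0% in all strains were 1 of 10 endothelial markers, 6 of 10 Kupffer, 7 of 10 stellate, 3 of 7 cholangiocyte and 5 of 7 erythroid markers. State 14 was the most widespread state and covered 72.3% of all bins on average.

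The start regions of 5 members are shown before the values. Hamp and Hamp2 are shown as copies that differ in a short element, Bmp6 as the gene whose start changed most between strains, and Tfrc and Hpx as starts that held a fixed state. Each sequence is the 250 bases ahead of the first annotated start, from RefSeq on GRCm38.p6, written 5′ to 3′ on the strand of the gene. The regions are chr7:30944030-30944279 on the minus strand for Hamp, chr7:30924182-30924431 on the minus strand for Hamp2, chr13:38345466-38345715 on the plus strand for Bmp6, chr16:32608646-32608895 on the plus strand for Tfrc and chr7:105600117-105600366 on the minus strand for Hpx. In Hamp the capitals mark the letters GGCGCC, the core of a BMP response element, and in Hamp2 they mark the bases aligned with it. In the other 3 sequences the capitals mark CpG dinucleotides.
Hamp: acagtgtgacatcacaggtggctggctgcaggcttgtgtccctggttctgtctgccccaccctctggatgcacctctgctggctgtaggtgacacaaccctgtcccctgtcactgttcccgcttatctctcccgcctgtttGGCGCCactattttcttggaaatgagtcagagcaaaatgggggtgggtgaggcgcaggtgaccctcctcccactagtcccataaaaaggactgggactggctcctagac
Hamp2: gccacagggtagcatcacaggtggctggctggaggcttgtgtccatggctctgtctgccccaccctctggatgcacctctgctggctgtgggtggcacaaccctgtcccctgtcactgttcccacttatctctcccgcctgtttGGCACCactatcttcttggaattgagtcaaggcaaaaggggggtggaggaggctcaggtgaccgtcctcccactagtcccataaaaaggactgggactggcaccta
Bmp6: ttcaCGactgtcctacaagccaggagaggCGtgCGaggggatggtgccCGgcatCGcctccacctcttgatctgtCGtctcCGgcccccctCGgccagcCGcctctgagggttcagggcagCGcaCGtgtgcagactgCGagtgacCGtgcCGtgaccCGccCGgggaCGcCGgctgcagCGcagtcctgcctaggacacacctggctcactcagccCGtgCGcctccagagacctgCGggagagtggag
Tfrc: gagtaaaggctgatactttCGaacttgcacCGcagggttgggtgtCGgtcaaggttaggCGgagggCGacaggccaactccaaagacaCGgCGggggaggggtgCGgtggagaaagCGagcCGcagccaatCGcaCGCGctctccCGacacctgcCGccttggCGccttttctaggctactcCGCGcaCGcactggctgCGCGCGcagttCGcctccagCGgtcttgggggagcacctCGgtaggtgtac
Hpx: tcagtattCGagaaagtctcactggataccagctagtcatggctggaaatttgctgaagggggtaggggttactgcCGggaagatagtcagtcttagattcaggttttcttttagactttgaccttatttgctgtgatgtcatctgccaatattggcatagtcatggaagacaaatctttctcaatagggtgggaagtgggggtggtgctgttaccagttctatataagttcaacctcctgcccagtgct

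The Hamp and Hamp2 sequences were identical at 227 of 247 aligned bases, or 91.9%. In the marked element they differed by G4A, counted from 1 at the 5′ end of the marked letters with the Hamp base first. The letters TTCNNNGAA of a STAT site were present in both genes as TTCTTGGAA, 97 to 89 bases before the start of Hamp and 94 to 86 bases before that of Hamp2, and did not overlap the marked element. Of all 32851 promoter windows of this length, 9.59% held GGCGCC and 7.02% held TTCNNNGAA on either strand. GGCGCC was also found in the window of Tfrc, 89 to 84 bases before its start. CACGTG, an E-box bound by USF proteins, was found among the members only in the window of Bmp6 and in 6.02% of all windows. TATAAA was found only in the window of the first start of Fth1, on the opposite strand, and in 12.4% of all windows. These matches describe letters and not binding.

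CpG content differed among the starts. The Tfrc window had 25 CpG dinucleotides and the Bmp6 window 22, against a median of 6 over all windows. Hamp had 4, Hamp2 and Hpx had 2 each, and Hfe had 1. Tfr2 had 8 at its first start, and Fth1 had 3 at its first start and 21 at its second. Trf and Slc40a1 had no entry in the promoter table.

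Across the 10 genes the share of bins in states 1 to 3 ran from nearly the whole span to almost none of it. Hamp had the highest mean at 93.0% ± 10.7, followed by Fth1 at 81.8% ± 9.71, Hamp2 at 81.1% ± 21.4, Trf at 75.5% ± 4.08, Slc40a1 at 71.9% ± 9.14 and Hpx at 67.4% ± 6.92. Neighbours in this order overlapped in their ranges over strains, as did Hpx and Tfr2. Tfr2 followed at 56.0% ± 11.2, Hfe at 30.1% ± 4.56, Tfrc at 14.4% ± 2.03 and Bmp6 at 2.17% ± 1.02. The lowest Tfr2 strain, at 42.9%, was above the highest Hfe strain, at 38.5%, and neither Hfe and Tfrc nor Tfrc and Bmp6 overlapped. The spans ran from 30 bins in Hamp and Hamp2 to 794 in Bmp6. Span length was not taken into account in this order. The median over members was 69.6%, against 36.8% for 42 other genes of iron handling. A/J was the lowest strain at Trf, Hfe, Slc40a1, Bmp6 and Fth1, and 129S1/SvImJ the highest at Tfr2 and Fth1. Over all protein-coding genes the median share was also lowest in A/J, at 4.21%, and highest in 129S1/SvImJ, at 5.76%. The part of this in the values of the members was not tested.

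**Figure D1:**
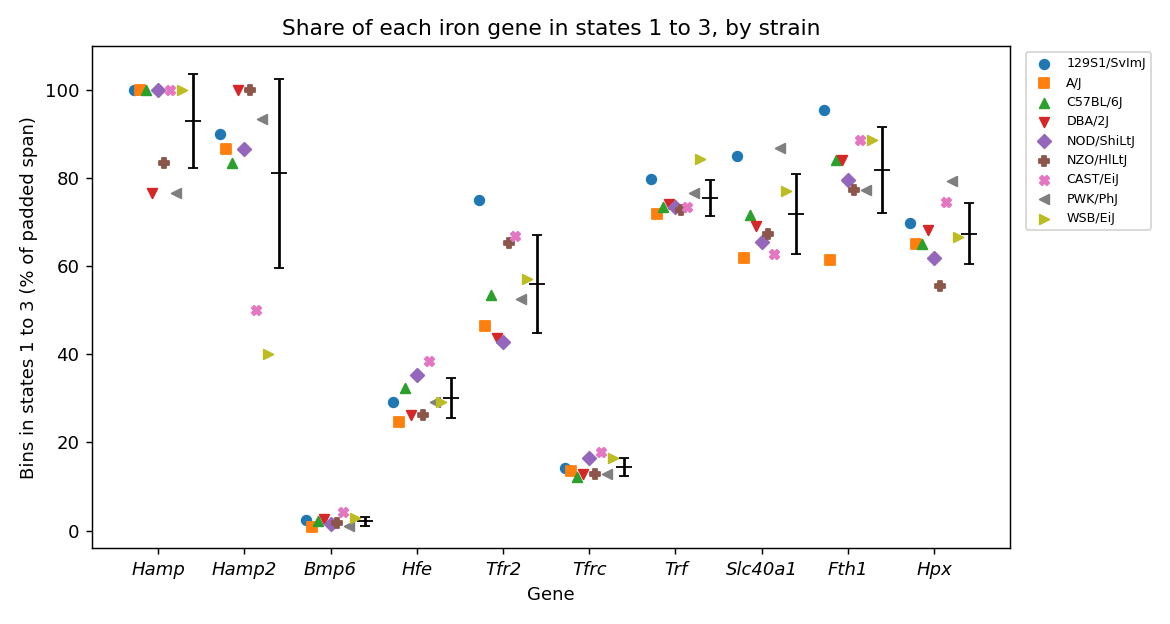
Percent of 200-bp bins of each padded gene span in states 1 to 3 (vertical axis) for the 10 iron genes (horizontal axis). Each symbol is 1 strain and the black bar is the mean ± SD over 9 strains. Hamp reaches 100% in 6 strains, Hamp2 falls to 50% in CAST/EiJ and 40.0% in WSB/EiJ, and Bmp6 stays at or below 4.16%.

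Hamp, the hepcidin gene, lies at chr7:30942368-30944029 on the minus strand. Its share of bins in states 1 to 3 was 76.7% in DBA/2J and PWK/PhJ, 83.3% in NZO/HlLtJ and 100% in the other 6 strains. No bin of the span was in state 14 in any strain. All the bins outside states 1 to 3 lay downstream of the gene, since the gene itself and its upstream 2 kb were at 100% in all 9 strains. In DBA/2J a state 9 segment of 1400 bp covered chr7:30940601-30942000, in NZO/HlLtJ a state 9 segment of 1000 bp covered chr7:30941201-30942200, and in PWK/PhJ a state 4 segment of 1400 bp covered chr7:30940601-30942000. The downstream flank differed at 61.9% of bins between strain pairs on average, the gene at 17.2% and the upstream flank at 8.89%. The upstream 2 kb reach into Usf2, a transcription factor gene whose own chromatin is therefore part of these values.

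The bin that holds the Hamp start was in state 3 in C57BL/6J and NOD/ShiLtJ and in state 1 in the other 7 strains. State 1 made up 77.0% ± 9.04 of the Hamp span and state 3 made up 14.4% ± 6.67. Of the disagreement between strains at Hamp, 47.9% was between states 1 and 3 and 18.0% between states 1 and 9. Inside the gene every bin was in states 1 to 3, so what varied there was an exchange within this group.

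Hamp2, the copy of Hamp at chr7:30922372-30924181, varied more. Its share in states 1 to 3 was lowest in WSB/EiJ at 40.0% and CAST/EiJ at 50%, had a median of 86.7%, and was highest in DBA/2J and NZO/HlLtJ at 100%. CAST/EiJ and WSB/EiJ were apart from the other 7 strains, which had 83.3% or more. In those 2 strains state 14 took the downstream flank, with a segment of 1600 bp at chr7:30920401-30922000 in CAST/EiJ and of 1200 bp at chr7:30920801-30922000 in WSB/EiJ. State 14 was found at Hamp2 in no other strain. In WSB/EiJ a state 4 segment of 1200 bp, chr7:30923401-30924600, covered the start, and in CAST/EiJ a state 4 segment of 600 bp lay just upstream of it. PWK/PhJ, the remaining wild-derived strain, had 93.3% in states 1 to 3. The upstream flank of Hamp2 overlaps the pseudogene Usf2-ps1.

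**Figure D2:**
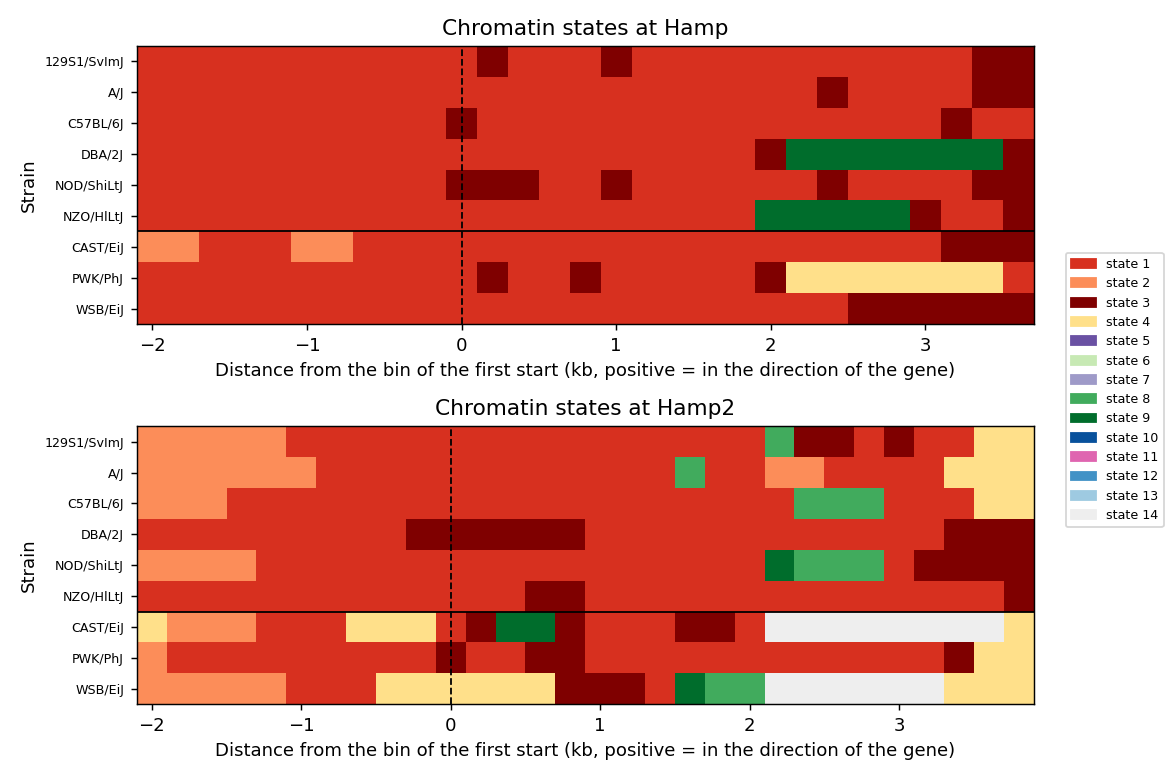
Chromatin state of each 200-bp bin (colour) at Hamp and Hamp2, by distance from the bin of the first start in kb, with 1 row per strain and the 3 wild-derived strains under the line. States other than 1 to 3 appear at Hamp only downstream of the gene, in DBA/2J, NZO/HlLtJ and PWK/PhJ. At Hamp2 state 14 appears in CAST/EiJ and WSB/EiJ only.

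Within strains Hamp exceeded Hamp2 by 11.9 percentage points ± 28.9, from 23.3 lower in DBA/2J to 60.0 higher in WSB/EiJ. Hamp was higher in 6 strains and lower in 3, and the difference was smaller than its spread (exact two-sided sign-flip permutation test, p = 0.289, n = 9). Without WSB/EiJ the difference was 5.83 points and without CAST/EiJ 7.08 points. With 5 kb added at both ends in place of 2 kb the difference was 30.6 points (exact p = 0.0039), and these wider spans take in more of the neighbouring sequence. Hamp and Hamp2 are close copies, so some reads of the pair could have been assigned to either gene. The effect of this on their values was not tested.

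The protein-coding genes with the state composition closest to that of Hamp were Leap2, which encodes another antimicrobial peptide of the liver, Srsf5, a splicing factor gene, and Rpl36, a ribosomal protein gene. Their composition differed from that of Hamp by 11.2%, 12.0% and 12.1% of bins. The distance was taken within each strain from the shares of the 14 states and then averaged over 9 strains. Hamp2 stood at rank 463, at 33.7%. The median distance over all protein-coding genes was 95.3%.

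Bmp6, the gene of the ligand that stimulates Hamp, was almost free of states 1 to 3. It lies at chr13:38345716-38500314 on the plus strand, and its share in states 1 to 3 was lowest in A/J at 0.756%, had a median of 2.27% and was highest in CAST/EiJ at 4.16%. State 14 made up 86.1% ± 4.84 of its 794 bins. The padded span also overlaps the protein-coding gene Txndc5 and the long noncoding RNA genes Gm47990 and 4930579J19Rik. Hamp exceeded Bmp6 by 90.8 points ± 10.5 with the same sign in all 9 strains (p = 0.0039 by the sign-flip permutation test, exact and two-sided, which is the smallest this design allows, and 0.00586 adjusted over the 3 gene pairs tested). Without each strain in turn the difference stayed between 89.7 and 92.9 points. States 1 to 3 were grouped from these same segmentations for lying at hepatocyte genes. The p-values of the gene pairs are therefore not independent of that choice. The padded span held 30 bins at Hamp and 794 at Bmp6, so the same stretch of bins weighs less in the longer gene. Within 1 kb of the start, where both had 11 bins, the difference was 96.0 points (exact p = 0.0039 by the sign-flip permutation test). In a mixed sample a low share can reflect chromatin of few cells as well as chromatin of all cells, and these cannot be told apart here.

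Among the members' starts, that of Bmp6 differed most from strain to strain. The start bin was in state 5 in 129S1/SvImJ, NZO/HlLtJ and PWK/PhJ, state 14 in A/J, state 10 in C57BL/6J, state 1 in CAST/EiJ, state 7 in DBA/2J, state 6 in NOD/ShiLtJ and state 12 in WSB/EiJ. Within 1 kb of the start, 63.6% of bins differed between strain pairs, which placed Bmp6 at rank 390 of 17274 genes with an annotated start. Away from the start the value was 12.9%. The other 7 members with an annotated start had the opposite order, with lower divergence within 1 kb of a start than elsewhere, as did 50.9% of all genes.

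CAST/EiJ stood apart at the Bmp6 start. Of the 11 bins within 1 kb, 4 were in states 1 to 3 in CAST/EiJ and 0 in each of the other 8 strains. States 10, 12 and 13 together held 0 of these bins in CAST/EiJ and between 4 and 9 in the other strains, the highest in WSB/EiJ. States 5 and 7 together held 7 in 129S1/SvImJ, 6 in NZO/HlLtJ, 5 in C57BL/6J, 4 in DBA/2J and 3 in PWK/PhJ. They held 2 in WSB/EiJ, 1 in CAST/EiJ and 0 in A/J and NOD/ShiLtJ. States 10, 12 and 13 covered most of a panel of 10 developmental regulator genes. There state 13 covered 68.4% ± 2.60 of bins, state 10 covered 13.03% ± 2.12 and state 12 covered 8.43% ± 1.73. In hepatocyte marker genes state 13 covered 0.224% ± 0.362 and state 12 covered 0.0195% ± 0.0585, and state 10 was not found. The groupings of states 10, 12 and 13 and of states 5 and 7 were made after the values were seen. The difference of CAST/EiJ from the other strains was not tested.

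**Figure D3:**
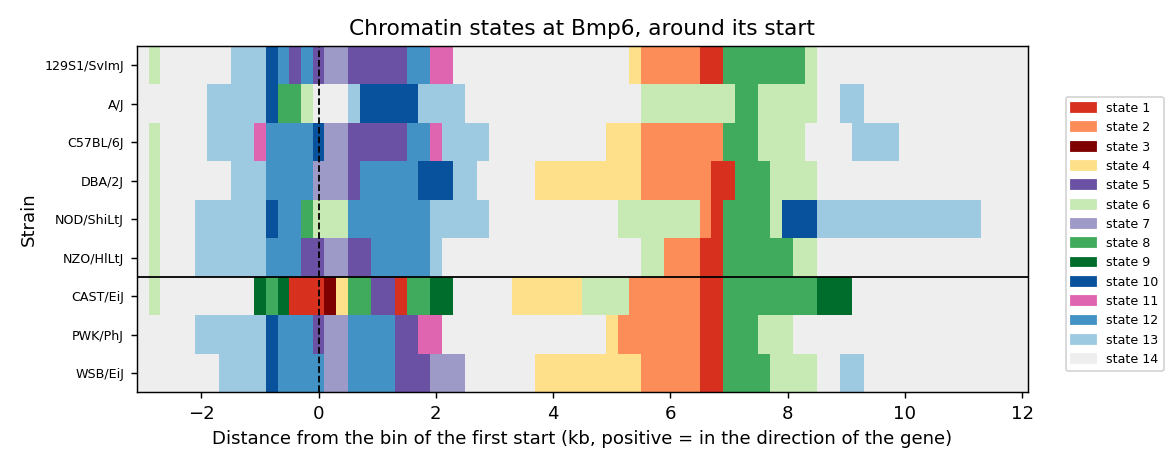
Chromatin state of each 200-bp bin (colour) around the start of Bmp6, by distance from the bin of the first start in kb, with 1 row per strain and the 3 wild-derived strains under the line. States 1 and 3 lie at the start in CAST/EiJ only, while a second stretch 5 to 8.8 kb into the gene holds states 1 or 2 in 8 strains and not in A/J.

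A second stretch of Bmp6, 5 to 8.8 kb into the gene, was chosen after the values were seen, and its divergence between strains was not calculated. Bins in states 1 or 2 were present there in 8 strains, from 2 of 19 bins in NOD/ShiLtJ to 9 in PWK/PhJ. A/J had 0 such bins and 15 in states 6 or 8. A state 8 run of 400 bp at chr13:38352801-38353200 was shared by all 9 strains. Across the whole gene, 40.1% of the disagreement was between states 13 and 14. State 13 covered 11.3% of the span in WSB/EiJ, 8.44% in A/J and 0.378% in CAST/EiJ. At 54 of 794 bins WSB/EiJ alone differed from a state shared by the other 8 strains, and at 32 bins CAST/EiJ alone did.

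The iron sensors of the hepatocyte surface had mixed spans. Hfe, which encodes an MHC class I-like protein that binds transferrin receptor 1, lies at chr13:23702034-23710854 on the minus strand. Its share in states 1 to 3 was lowest in A/J at 24.6%, had a median of 29.2% and was highest in CAST/EiJ at 38.5%. The bin at its start was in state 1 in 9 of 9 strains, and an 800-bp run of state 1 at chr13:23710801-23711600 was common to all. The downstream flank differed at 58.3% of bins between strain pairs, the upstream flank at 43.6% and the gene at 39.6%. Over the padded span state 4 covered 32.8% ± 13.8 of bins, from 4.62% in NOD/ShiLtJ to 49.2% in C57BL/6J, and state 9 covered 29.2% in NOD/ShiLtJ, 15.4% in A/J and DBA/2J, 13.8% in NZO/HlLtJ, at most 7.69% in 3 further strains and 0% in C57BL/6J and PWK/PhJ. Exchange of states 4 and 14 made up 35.0% of the disagreement. With 43.1% of bins differing between strain pairs, Hfe stood at percentile 95.2 of all genes. Over the bins that left state 14 in at least 1 strain, it stood at percentile 86.1. NOD/ShiLtJ at 60.4% and PWK/PhJ at 55.0% differed most from the others. Over all protein-coding genes the same strains had the highest median differences from the others, with 22.2% in PWK/PhJ and 20.2% in NOD/ShiLtJ. State 9 also covered more of the whole genome in NOD/ShiLtJ, at 1.49%, than in any other strain, with 0.514% in C57BL/6J and 0.255% in PWK/PhJ. State 4 covered less of the genome in NOD/ShiLtJ, at 1.78%, than in any other strain. The part of these strain-wide values in the Hfe values was not tested.

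Tfr2, the gene of transferrin receptor 2, and Tfrc, the gene of transferrin receptor 1, which takes up iron-loaded transferrin, contrasted within a family. Tfr2 at chr5:137569822-137588081 had 42.9% of bins in states 1 to 3 in NOD/ShiLtJ, a median of 53.6% and 75.0% in 129S1/SvImJ. Tfrc at chr16:32608896-32632794 had 12.1% in C57BL/6J, a median of 13.6% and 17.9% in CAST/EiJ. The 2 ranges did not overlap. Tfr2 exceeded Tfrc by 41.6 points ± 11.0 with the same sign in all 9 strains (p = 0.0039 by the same exact permutation test, and 0.00586 adjusted over 3 pairs). Within 1 kb of the first start the mean difference was 0 points (exact p = 1.0), so the whole contrast lay outside the start regions.

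Most of Tfrc beyond its start region was in state 14. Exceptions farther along were in CAST/EiJ, with segments of states 6, 2 and 4 over chr16:32618401-32620200 and state 4 in the downstream flank, and in PWK/PhJ, with a state 6 segment of 1600 bp at chr16:32618201-32619800. A state 3 run of 600 bp at chr16:32608801-32609400 covered both annotated starts in all strains, and a shared state 1 run of 1200 bp lay just downstream. A run of state 14 over 13400 bp, chr16:32620201-32633600, was shared by all 9 strains. Of the 140 Tfrc bins, 69.3% had the same state in every strain, and 12.6% differed between strain pairs on average. Tfr2 had 16.1% of 112 bins in the same state in every strain and 45.6% differing between pairs. The shared runs of Tfr2 included 600 bp of state 3 at chr5:137570601-137571200, which holds its 2 later annotated starts, and 600 bp of state 2 at chr5:137578601-137579200. State 4 covered 28.1% ± 7.19 of the Tfr2 span and state 2 covered 24.7% ± 7.96. The upstream flank of Tfr2 overlaps the neighbouring gene Actl6b.

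**Figure D4:**
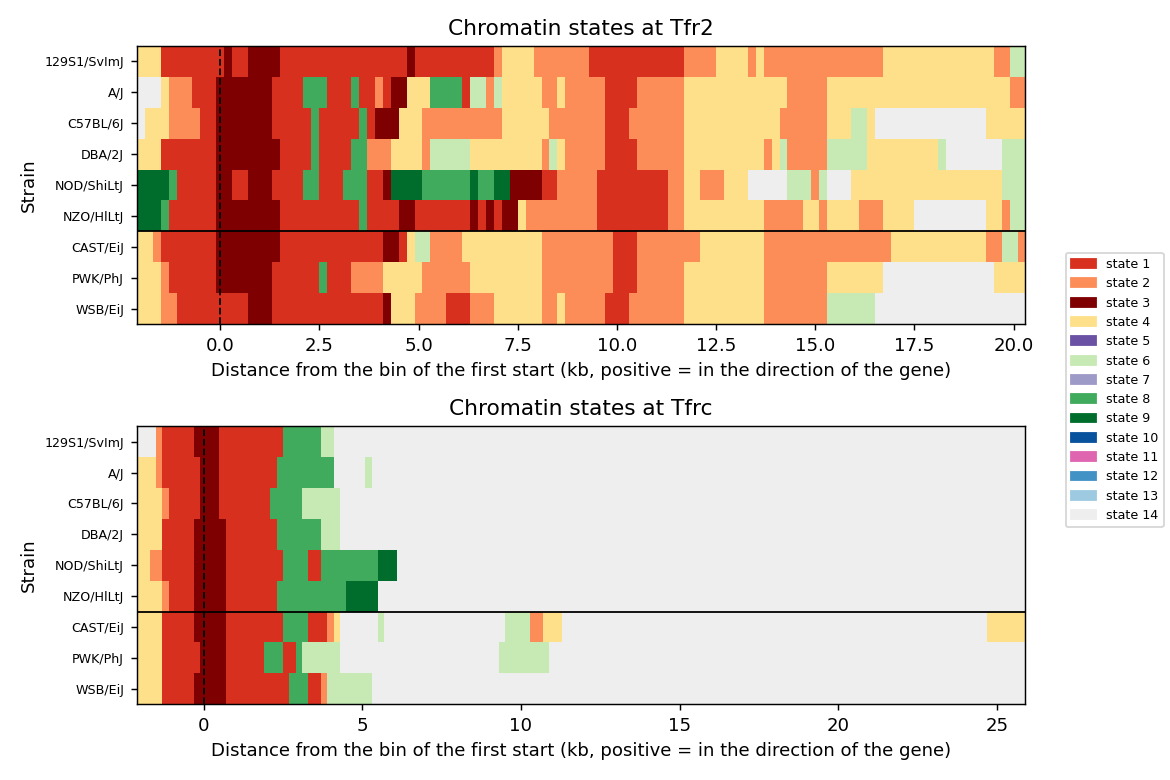
Chromatin state of each 200-bp bin (colour) at Tfr2 and Tfrc, by distance from the bin of the first start in kb, with 1 row per strain and the 3 wild-derived strains under the line. Both genes have states 1 to 3 around the start, and Tfr2 carries states 1, 2 and 4 further along while most of Tfrc is in state 14.

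Among the secreted carriers, Trf, the transferrin gene, had the smallest SD of the 7 members with a mean above 50%. It lies at chr9:103208876-103230286, and its share in states 1 to 3 was lowest in A/J at 71.9%, had a median of 73.4% and was highest in WSB/EiJ at 84.4%. No bin of Trf was in state 14 in any strain. The strand of Trf is not in the tables used, so its 2 ends are given by position. At the upper end a state 3 run of 1600 bp, chr9:103228801-103230400, was followed by a state 1 run of 2000 bp that filled the upper flank in all 9 strains. At the lower end the bin was in state 4 in 8 strains and in state 2 in 129S1/SvImJ. Exchange of states 1 and 2 made up 50.1% of the disagreement, so that 27.2% of bins differed between strain pairs while the share in states 1 to 3 changed little.

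Hpx, the hemopexin gene at chr7:105591611-105600116 on the minus strand, had 55.6% of bins in states 1 to 3 in NZO/HlLtJ, a median of 66.7% and 79.4% in PWK/PhJ. Its start was in state 3 in 9 of 9 strains, and the upstream 2 kb were at 100% in states 1 to 3 in all of them. The downstream 2 kb had a mean of 10% ± 15.8. Within 1 kb of the start 14.6% of bins differed between strain pairs, and elsewhere 40.6% did.

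Slc40a1 encodes ferroportin, the exporter that hepcidin acts on, and lies at chr1:45908070-45926532. Its share in states 1 to 3 was lowest in A/J at 61.9%, had a median of 69.0% and was highest in PWK/PhJ at 86.7%. The upper end was in state 1 in 9 of 9 strains, beside a shared state 3 run of 600 bp at chr1:45925201-45925800. The lower end was in state 6 in 6 strains, in state 2 in 129S1/SvImJ and PWK/PhJ and in state 8 in NOD/ShiLtJ. State 6 covered 18.8% ± 5.31 of the gene, the highest share of this state among the members, and 24.5% of the disagreement was between states 2 and 6. The lower flank of Slc40a1 overlaps the pseudogene Gm18303.

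Fth1, the gene of the ferritin heavy chain, lies at chr19:9980600-9985111 on the plus strand. Its share in states 1 to 3 was lowest in A/J at 61.4%, had a median of 84.1% and was highest in 129S1/SvImJ at 95.5%. A/J was apart from the next strains, NZO/HlLtJ and PWK/PhJ at 77.3%. State 8 covered 27.3% of Fth1 in A/J, the highest of any strain, and state 8 over the whole genome was higher in A/J, at 0.868%, than in all other strains except NOD/ShiLtJ at 0.959%. Fth1 has 2 annotated starts that behaved differently. The second, at position 9982646, was in state 3 in 9 of 9 strains. The first, at position 9980600, was in state 8 in A/J, CAST/EiJ and NOD/ShiLtJ, in state 9 in DBA/2J and NZO/HlLtJ, and in states 1, 3, 4 and 2 in 129S1/SvImJ, C57BL/6J, PWK/PhJ and WSB/EiJ.

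Counted over the 8 members with an annotated start, the first start was not in the same state in all strains in 5 genes, Hamp, Hamp2, Tfr2, Bmp6 and Fth1, and 43.2% of 17274 genes were of this kind. The start was in state 3 in all 9 strains in 2 genes, Tfrc and Hpx, against 32.1% of all genes. States 1 to 3 held the start in all strains in 5 genes, against 43.0% of all genes. The start took at least 5 different states in Bmp6 and Fth1, a class that held 1.64% of all genes. With the start farthest downstream in place of the first, a choice added after the data were seen, 3 genes varied and 4 were in state 3 throughout.

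The members' divergence between strains ranged from 12.6% of bins in Tfrc and 13.6% in Bmp6 to 49.6% in Hamp2, the mean over 36 strain pairs in each case. Hamp2 stood at rank 365 of 21631 protein-coding genes, Tfr2 at 711 and Hfe at 1047. The median over members was 32.1% and over all genes 19.7%. Much of a typical gene is in state 14 in every strain, and over the bins that left state 14 in at least 1 strain the medians were 35.5% for the members and 34.5% for all genes. Over these bins Hamp2 stood at percentile 95.9, Tfr2 at 91.4 and Hfe at 86.1. Allowing a match within 1 neighbouring bin lowered the members' median to 15.7%. Over the bins that left state 14 the values of Tfrc and Bmp6 were 30.9% and 38.2%, and with states 13 and 14 merged that of Bmp6 was 8.14%. Without the added 2 kb, Hamp had 17.2% and Fth1 had 19.1%, where the downstream flanks of both genes differed more than the genes did, and the downstream flank of Fth1 overlaps the gene Best1.

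**Figure D5:**
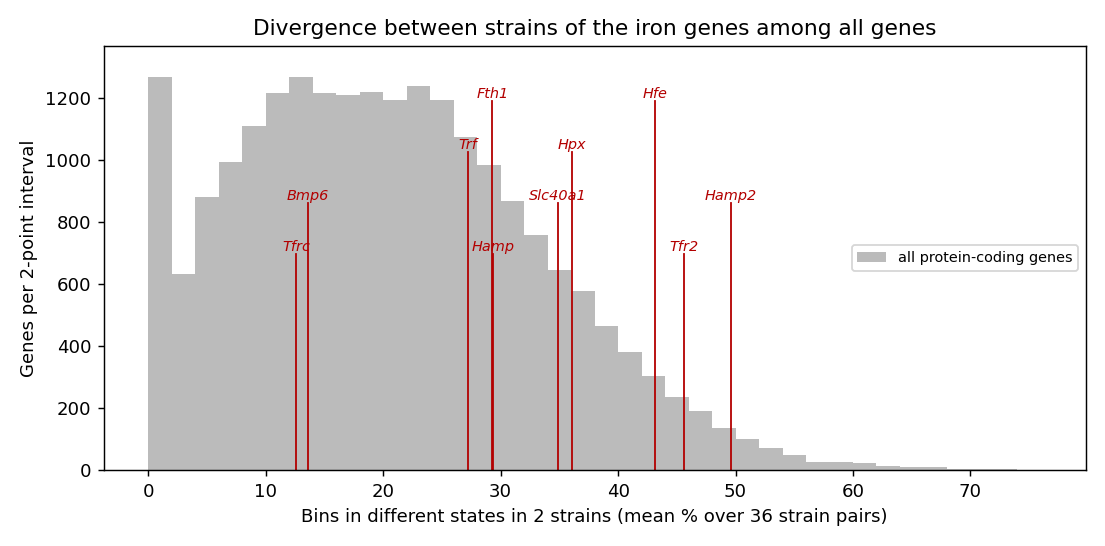
Number of protein-coding genes (vertical axis) by percent of bins in different states in 2 strains, averaged over 36 strain pairs (horizontal axis). The grey bars are all 21631 genes and the red lines are the 10 iron genes, of which Hamp2, Tfr2 and Hfe lie farthest right and Tfrc and Bmp6 below the median of 19.7%.

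Wild-derived and laboratory strains overlapped in the share of states 1 to 3 at each of the 10 members. Over all protein-coding genes the groups did not overlap in 0.777% with the wild-derived strains higher and 1.10% with them lower, 1.88% in all. The mean of Hamp2 was 61.1% in wild-derived and 91.1% in laboratory strains (exact permutation p = 0.0595, adjusted over all genes 0.986). The mean of Hpx was 73.5% in wild-derived and 64.3% in laboratory strains (exact permutation p = 0.0595, adjusted 0.986). With 84 splits the smallest exact p is 0.0119. No gene passed after adjustment by the exact permutation test, and 975 genes had an unadjusted p below 0.05. Without PWK/PhJ the groups no longer overlapped at 2 of 10 members, Hamp2 and Bmp6, and at 4.03% of all genes. Without WSB/EiJ they did not overlap at 1 member, Hpx, and at 7.50% of all genes.

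The 42 other genes of iron handling gave the surroundings of these results. In 33 of them the share in states 1 to 3 was above the median of all genes. The highest means belonged to Ftl1, the ferritin light chain gene, at 100% in every strain, Hjv, the BMP co-receptor hemojuvelin, at 98.7% ± 1.73, Hp, which encodes the hemoglobin carrier haptoglobin, at 98.6% ± 1.77, Id1, a target of BMP signalling, at 91.4% ± 5.24, and Pcbp1, an iron chaperone gene, at 90.0% ± 4.70. At 5 genes no bin was in states 1 to 3 in any strain. These were Heph, Cybrd1, Bmp2, Cd163 and Ltf, named after their values were seen. Bmp2 encodes a second ligand of the Hamp pathway that endothelial cells release, and Heph and Cybrd1 act in iron uptake by the gut.

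Divergence among the other iron genes was highest at Lcn2, which encodes a siderophore-binding protein, with 56.2% of bins differing between strain pairs. Its share in states 1 to 3 was 2.78% in NZO/HlLtJ, 11.1% in CAST/EiJ and between 33.3% and 50% in the other strains. Slc11a2, the divalent metal transporter gene, had 45.9%, Hmox1, the heme oxygenase gene, 45.3%, Slc25a37, a mitochondrial iron importer gene, 38.3%, and Smad6, an inhibitor of BMP signalling, 34.7%.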

How the data were processed

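Chromatin immunoprecipitation sequencing of 4 histone marks was carried out on hepatocytes of 9 strains. The authors' deposited files used here hold, for each strain, intervals in steps of 200 bp with a state number from 1 to 14. The number is a category and not a count, signal or score. The submitters' processing notes name the build mm10, FastQC 0.11.5 and MACS 1.4.2. The aligner, the segmentation tool, the way mice were combined and the mark content of the states are not given in the sources used here, and the depth is unknown, so no interval for counting error is given.

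Segmentations were written as 200-bp bins. Gene spans and starts were taken from RefSeq tables of GRCm38.p6, the same coordinates as mm10. Of 21631 protein-coding genes, 17274 had a start. The strand came from the promoter table, and the first start is the one farthest upstream. Divergence is the percent of bins in different states, averaged over 36 strain pairs. Paired differences were tested by exact two-sided sign flips over 9 strains (512 patterns), and strain groups by all 84 splits with Benjamini-Hochberg adjustment over all genes. Related strains are not fully independent values. The promoters of Hamp and Hamp2 were aligned with Biopython 1.88. Python 3.11.15, numpy 2.4.6, pandas 2.3.3 and matplotlib 3.10.9 were used. On simulated data of 2000 genes all 200 planted group differences were found by the rule of no overlap between groups. That run checked the calculation only. The power to find group differences of the size seen at the members was not tested.

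The members, the gene lists and the tests were chosen with earlier results of these data known. All members are named. Other iron genes are named where they were among the 5 with the highest divergence or the 5 with the highest share in states 1 to 3, and for Hamp the 3 genes of most similar composition. The comparison of wild-derived with laboratory strains at the other iron genes is not reported here. Alternatives were other paddings, bins near the start, single-bin segments replaced, states other than 14, states 13 and 14 merged, a match within 1 bin, marked bins, bins of other genes left out and each strain left out.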

Additional observations from a re-analysis of the deposited data

Results flagged for a closer look

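Among 20 sets of 9 strain values, the share in states 1 to 3 and the difference from the other strains for each of the 10 genes, 2 had a strain far from the rest by the gap between the extreme strain and its neighbour. Chance gives about 1 set in 20.

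At Tfr2, 59.0% of bins in NOD/ShiLtJ differed from the other strains on average, and the next strain was 129S1/SvImJ at 48.9%. In NOD/ShiLtJ state 8 covered 12.5% of the Tfr2 span and state 9 covered 9.82%. Over the whole genome these states covered 0.959% and 1.49% of bins in NOD/ShiLtJ, each the highest of any strain. Over all protein-coding genes the median difference from the other strains was 20.2% in NOD/ShiLtJ, below only PWK/PhJ at 22.2%. The part of these strain-wide values in the Tfr2 value was not tested. At Fth1, 38.9% of bins in A/J differed from the other strains, and the next strain was PWK/PhJ at 31.2%.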

How the results depend on the processing

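No paired analysis was possible because of the single segmentation per strain where the replicate numbers of mice are concerned, while genes were compared within strains. Leaving out each strain in turn gave a difference of Hamp from Hamp2 between 5.83 and 16.2 points (exact permutation p between 0.172 and 0.578), of Tfr2 from Tfrc between 39.2 and 43.5 points, and of Hamp from Bmp6 between 89.7 and 92.9 points (exact permutation p = 0.00781 in each case for both). The median divergence of the members stayed between 31.6% and 33.1%, the number of varying starts at 5 and the number of starts in state 3 throughout at 2, and the members without overlap between wild-derived and laboratory strains numbered between 0 and 2, where between 2.36% and 7.50% of all genes did not overlap. The difference of Hamp from Hamp2 passed the threshold with 5 kb added at both ends (30.6 points, exact p = 0.0039) and that of Tfr2 from Tfrc was 0 within 1 kb of the start (exact p = 1.0). With the most frequent state within 1 kb, 3 starts varied and 0 were in state 3 throughout. With single-bin segments replaced, 6 starts varied and 1 was in state 3 throughout, and with the start farthest downstream, an alternative added after the data were seen, 3 varied and 4 were in state 3 throughout. The median divergence was 35.5% over bins that left state 14 in at least 1 strain and 15.7% with a match within 1 bin. The cause of these changes was not tested. No result changed direction. Depth is unknown, so small differences in state between strains cannot be weighed against counting error.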
